A study of Mus musculus with 4 samples.

Results

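The enzymes of glycolysis and the genes of the hypoxia-inducible factor (HIF) pathway were described in lung group 2 innate lymphoid cells (ILC2s) that had been activated with or without a blocker of Orai channels. The 34 genes were taken as the rows of the deposited expression table whose gene name equals a name on a list of 18 glycolytic genes and 16 genes of the HIF pathway, out of 22554 genes in all. The rule itself used names and no measured value, but the list was drawn up with earlier results of these data known, so the shares of its genes given below are descriptions and not independent evidence. All 34 genes were found, and all 34 passed the filter on low counts.

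The cells were ILC2s sorted from the lungs of BALB/c mice aged 6 weeks, which carried no engineered allele by the labels. Both groups received interleukin (IL)-2, IL-7 and IL-33 in an overnight culture, so every library comes from activated cells. One group of 2 libraries was given vehicle, labelled Control, and the other group of 2 libraries was given compound 5D, a small-molecule blocker of Orai channels, the plasma membrane pores that admit calcium after the stores of a cell have emptied. There was no unstimulated or freshly isolated group, and neither the labels nor the methods say whether the libraries of a group came from separate mice, pools of mice or cultures. The p-values therefore measure the spread between these libraries, which may be technical.

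The estimated counts on genes summed to between 20096555 and 28697265 per library, with the 5D libraries deeper than the vehicle libraries. Of the genes in the table, 17650 passed the filter and were tested. The 10 ILC2 markers examined, Gata3, Il1rl1, Icos, Klrg1, Il7r, Rora, Il2ra, Thy1, Il5 and Il13, were detected and summed to between 9442 and 10315 normalized CPM (counts scaled to library size) per library. Lists of markers of T cells, B cells, natural killer cells and ILC1s, ILC3s, myeloid cells, granulocytes and mast cells, and structural lung cells each summed to at most 49.9 normalized CPM. Of the ILC2 markers, with 5D 4 had lower and 1 had higher levels at an unadjusted p under 0.05, and 0 passed an adjusted p under 0.05 by the quasi-likelihood test of edgeR, so marker levels moved to this extent alongside the genes below, and their part in those results was not tested.

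Glycolysis breaks glucose down to pyruvate in the cytosol, first spending ATP to prime and split the sugar and then regaining ATP from the 3-carbon intermediates. HIF-1α, encoded by Hif1a, is made continuously and is marked for destruction when prolyl hydroxylases modify it in the presence of oxygen and the von Hippel-Lindau protein recognizes the mark. When HIF escapes this, it activates genes for glycolysis, for restraining mitochondrial pyruvate use, for mitophagy and for blood vessel growth. Activated lymphocytes commonly run glycolysis even when oxygen is available.

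The first question was whether the RNA of these genes differed between 5D-treated and vehicle-treated ILC2s. None of the genes passed the threshold on adjusted p, but 7 abundant glycolytic enzymes had 0.837 to 0.940 times the vehicle level with 5D at an unadjusted p under 0.05, whereas the Hif1a groups overlapped. The enzymes with the smallest p-values were triose-phosphate isomerase (Tpi1), pyruvate kinase (Pkm) and liver-type phosphofructokinase (Pfkl). At an adjusted p under 0.05 by the quasi-likelihood test of edgeR with Benjamini-Hochberg correction over all 17650 genes, 0 of the 34 genes were lower and 0 were higher. The background of such calls was 0.068% of all genes tested for lower and 0.0283% for higher. At an unadjusted p under 0.05, 10 of the 34 genes (29.4%) were lower and 1 was higher, against 3.84% of all genes tested lower and 3.5% higher. Both tools other than edgeR that were run called some members at an adjusted p under 0.05, 3 by DESeq2 (Pfkl, Pkm and Tpi1) and 2 by limma-voom (Pkm and Tpi1), all lower. Over all genes tested, both tools also called more genes than the main fit. Leaving out a library changed the calls and that background too, and the last section gives the counts for the tools and these fits. With each library left out in turn, the edgeR log2 fold change of Tpi1 ran from -0.27 to -0.23. That of Pfkl ran from -0.36 to -0.17 and that of Pkm from -0.15 to -0.11. In a bulk sample, fewer cells of a type and less RNA per cell cannot be told apart.

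Of the 34 genes, 25 (73.5%) had a log2 fold change below 0, compared with 50.4% of all genes tested, and their median log2 fold change was -0.099, compared with -0.0016. For 17 of the 34 genes both 5D values were under both vehicle values, and for 5 (14.7%) they were over both. The corresponding shares of all genes tested were 18.8% and 18.7%. High expression alone makes small differences easier to detect. Among the 2328 genes with a mean of at least 100 normalized CPM, 6.74% had an unadjusted p under 0.05 and a lower level and 5.07% a higher one, while of the 13 members at that level 7 were lower and 0 higher. The members' summed level was 14405 and 14482 normalized CPM with vehicle and 13649 and 13505 with 5D, so that both 5D libraries were below both vehicle libraries. Most of it came from the 18 glycolytic genes, at 12967 and 13095 with vehicle and 12271 and 12059 with 5D. The sum of the 16 HIF genes overlapped between groups, at 1437 and 1387 with vehicle and 1378 and 1446 with 5D. Because 2 libraries were compared with 2, the exact permutation test of a single value cannot give a two-sided p under 0.333, and none was used.

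**Figure D1:**
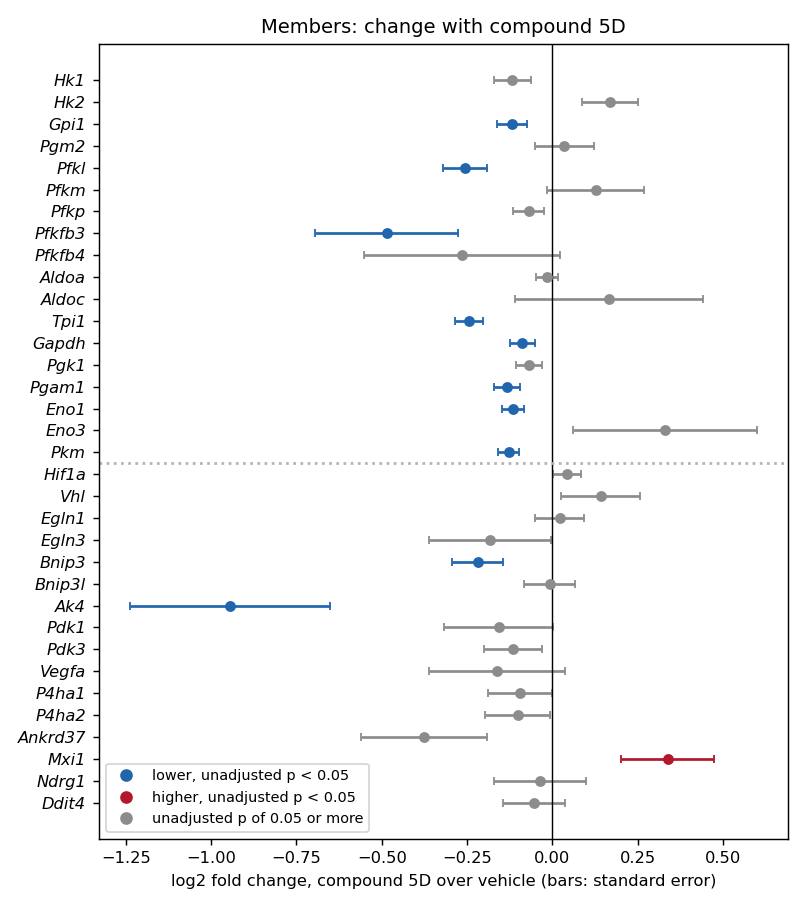
The log2 fold change (5D minus vehicle) of each of the 34 genes in pathway order, as a point from the edgeR fit. Bars show the standard error and are narrower than the 95% intervals in the text. The points of 25 genes lie below 0, and the widest bars belong to genes of low level such as Ak4.

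**Figure D2:**
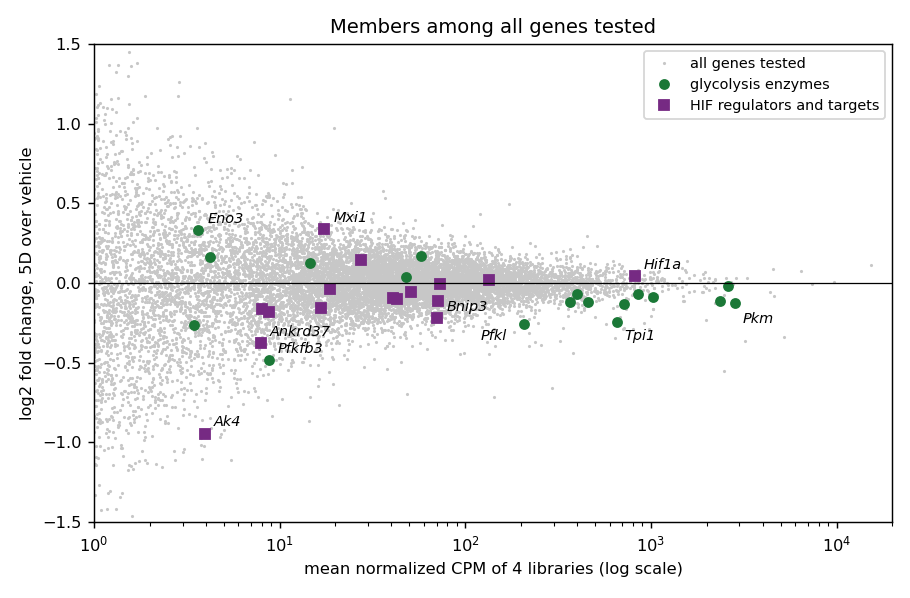
The log2 fold change (5D minus vehicle, vertical axis, shown between -1.5 and 1.5) against the mean level in normalized CPM (log axis) for all genes tested that lie in the plotted range, with the 34 members marked. The abundant glycolytic members form a narrow band just below 0, and Ak4 is the member farthest below it.

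Hexokinases trap glucose in the cell by phosphorylating it. Hk1, the housekeeping form, was present at 402 and 364 normalized CPM with vehicle and at 349 and 357 with 5D. The groups did not overlap, but the vehicle libraries differed from each other by more than the gap between the groups. Its log2 fold change was -0.12 (SE 0.05, unadjusted p = 0.0505) and came to -0.05 without vehicle replicate 1. Hk2, the inducible form and a HIF target in many tissues, had 55.2 and 53.2 normalized CPM with vehicle (1282 and 1065 counts) and 61.9 and 60.01 with 5D (1681 and 1716 counts). Both 5D libraries were above both vehicle libraries, which is the opposite order to Hk1. The log2 fold change of Hk2 was 0.17 (SE 0.08, 95% interval -0.01 to 0.35, edgeR adjusted p = 0.707). Per kilobase of the longest transcript, Hk2 made up 9.62% and 10.2% of the summed level of Hk1 and Hk2 with vehicle and 12.1% and 11.5% with 5D, so its share was higher in both 5D libraries.

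Glucose-6-phosphate isomerase (Gpi1, ENSMUSG00000036427, mm10 chr7:34201330-34230336) converts glucose 6-phosphate to fructose 6-phosphate. Its level was 467 and 484 normalized CPM with vehicle (10839 and 9685 counts) and 435 and 441 with 5D (11803 and 12600 counts). The 5D libraries were both below the vehicle libraries, with a log2 fold change of -0.12 (SE 0.04, unadjusted p = 0.0190, edgeR adjusted p = 0.566). The exons of Gpi1 share 741 bases with Gm26762 on the opposite strand, and reads of the pair may not have been separated. Phosphoglucomutase 2 (Pgm2) had overlapping groups between 46.7 and 49.3 normalized CPM. Its log2 fold change was 0.04, with an interval from -0.16 to 0.23.

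Phosphofructokinase commits the sugar to glycolysis and is built from liver (Pfkl), muscle (Pfkm) and platelet (Pfkp) type subunits. Pfkl (ENSMUSG00000020277, mm10 chr10:77986947-78010083) was at 224 and 229 normalized CPM with vehicle (5210 and 4579 counts) and at 202 and 177 with 5D (5486 and 5067 counts). Both 5D libraries lay below the vehicle libraries and differed from each other by about as much as the nearer one differed from vehicle. The log2 fold change of Pfkl was -0.26 (SE 0.06, 95% interval -0.40 to -0.11, unadjusted p = 0.0021, edgeR adjusted p = 0.366). It was -0.17 without 5D replicate 2 and -0.36 without 5D replicate 1. Pfkp was at 415 and 402 normalized CPM with vehicle and at 391 and 387 with 5D, again with both 5D libraries lower, and its log2 fold change of -0.07 had an interval from -0.17 to 0.03. The exons of Pfkp share 748 bases with Pitrm1 on the opposite strand. The scarce Pfkm went the other way, from 14.3 and 13.5 normalized CPM to 15.6 and 14.8, with a log2 fold change of 0.13 and an interval from -0.18 to 0.44.

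Per kilobase of the longest transcript, Pfkl provided 53.3% and 54.6% of the phosphofructokinase RNA with vehicle and 51.8% and 48.8% with 5D. Pfkp provided 42.3% and 41.2% with vehicle and 43.0% and 45.9% with 5D. Pfkm provided 4.41% and 4.19% with vehicle and 5.18% and 5.29% with 5D. The composition of the subunit RNA thus leaned toward Pfkp and Pfkm in both 5D libraries, as a description of 2 libraries per group without a test.

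**Figure D3:**
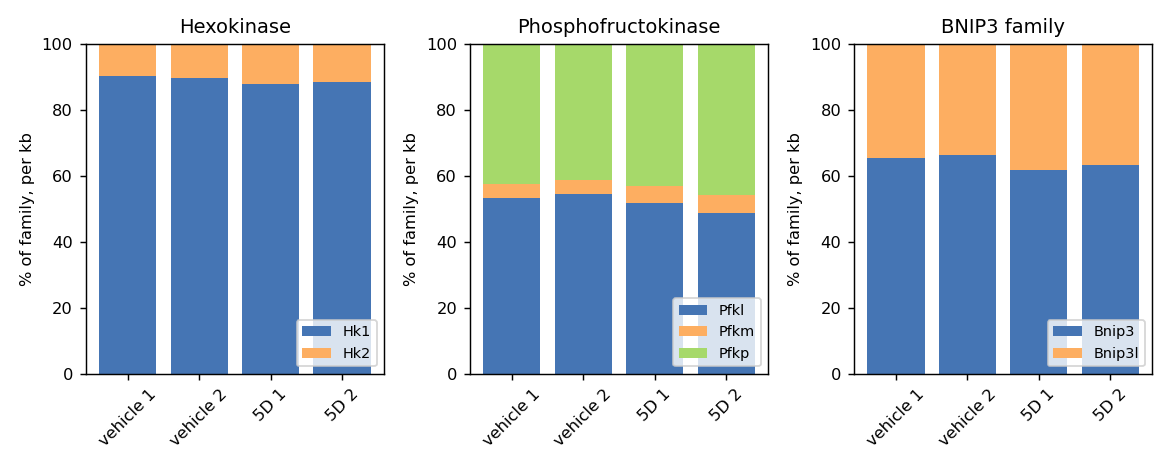
The share (percent of the family's summed level per kilobase of the longest transcript) that each gene contributes, as stacked bars for the 4 libraries. The families shown are hexokinase, phosphofructokinase and BNIP3. Hk1 makes up most of the hexokinase RNA, while Pfkl and Pfkp share most of the phosphofructokinase RNA. Bnip3 makes up 61.7% to 66.3% of the BNIP3 family RNA.

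The bifunctional PFKFB enzymes set the level of fructose 2,6-bisphosphate, the strongest activator of phosphofructokinase. Pfkfb3 (ENSMUSG00000026773, mm10 chr2:11471433-11554077) had 11.7 and 8.74 normalized CPM with vehicle (271 and 175 counts) and 8.25 and 6.37 with 5D (224 and 182 counts). The groups did not overlap, although the lower vehicle library was close to the higher 5D library. The log2 fold change of Pfkfb3 was -0.49 (SE 0.21, unadjusted p = 0.0405, edgeR adjusted p = 0.645), and without vehicle replicate 1 it was -0.26. Pfkfb4 was still lower in level, at 4.31 and 3.25 normalized CPM with vehicle and 2.76 and 3.53 with 5D, and its groups overlapped.

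Aldolase splits fructose 1,6-bisphosphate into a pair of triose phosphates, and triose-phosphate isomerase makes both usable. Aldoa, the aldolase of these cells, was at 2571 and 2630 normalized CPM with vehicle and at 2603 and 2541 with 5D. The groups overlapped, and the log2 fold change of -0.016 had an interval from -0.08 to 0.05. Aldoc reached at most 5.35 normalized CPM in a library, and its groups overlapped. Tpi1 (ENSMUSG00000023456, mm10 chr6:124810586-124814296) stood at 703 and 721 normalized CPM with vehicle (16325 and 14428 counts) and at 607 and 595 with 5D (16463 and 17024 counts). The 5D libraries were far below the vehicle libraries compared with the spread inside each group, with means of 712 ± 12.8 and 601 ± 7.93 (SD, n = 2 each).

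Among the 34 genes the p-value of Tpi1 was the smallest, ranking 19 among all genes tested. Its log2 fold change was -0.24 (SE 0.04, 95% interval -0.33 to -0.16, unadjusted p = 6.6e-05, edgeR adjusted p = 0.0615), a level 0.844 times that of vehicle, and it ranged from -0.27 to -0.23 when each library was left out in turn. The adjusted p of Tpi1 lay between 5.24e-06 (DESeq2) and 0.231 (edgeR without 5D replicate 2) over the alternatives. The side of the 0.05 threshold therefore depended on the method, while the direction did not.

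The payoff steps return ATP and end in pyruvate. There, 5 of the 6 members (83.3%) were lower in both 5D libraries than in both vehicle libraries, against 18.8% of all genes tested. Glyceraldehyde-3-phosphate dehydrogenase (Gapdh, ENSMUSG00000057666, mm10 chr6:125161715-125166467) was at 1046 and 1071 normalized CPM with vehicle (24290 and 21431 counts) and at 1004 and 986 with 5D (27259 and 28195 counts). The groups were close together without overlapping, with a log2 fold change of -0.089 (SE 0.04, unadjusted p = 0.0331, edgeR adjusted p = 0.629). Gapdh shares near-identical sequence with 138 other genes of the table, mostly pseudogenes, which held estimated counts equal to 34.7% of its own. Adding those counts to Gapdh gave a log2 fold change of -0.087. Phosphoglycerate kinase (Pgk1), the first ATP-yielding enzyme, was at 879 and 876 normalized CPM with vehicle and at 828 and 845 with 5D. Both 5D libraries were lower, with a log2 fold change of -0.07 and an interval from -0.15 to 0.01.

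Phosphoglycerate mutase (Pgam1, ENSMUSG00000011752, mm10 chr19:41911923-41918660) moves the phosphate group of 3-phosphoglycerate. It was at 754 and 741 normalized CPM with vehicle (17510 and 14830 counts) and at 683 and 681 with 5D (18533 and 19460 counts). The groups were well apart, with a log2 fold change of -0.13 (SE 0.04, unadjusted p = 0.0052, edgeR adjusted p = 0.487). Enolase 1 (Eno1, ENSMUSG00000063524, mm10 chr4:150236721-150248879), which makes phosphoenolpyruvate, was at 2406 and 2472 normalized CPM with vehicle (55894 and 49465 counts) and at 2274 and 2229 with 5D (61702 and 63744 counts). Its 5D libraries were both lower, with a log2 fold change of -0.12 (SE 0.03, unadjusted p = 0.0036, edgeR adjusted p = 0.443). The near-identical Eno1b held counts equal to 39.5% of those of Eno1, and with all 3 near-identical genes added the log2 fold change was -0.10. Eno3, the muscle enolase, was scarce and higher in both 5D libraries, at 3.66 and 2.80 normalized CPM with vehicle and 4.02 and 4.13 with 5D.

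Pyruvate kinase (Pkm, ENSMUSG00000032294, mm10 chr9:59656368-59679375) completes the pathway and yields ATP and pyruvate. It was the most abundant of the 34 genes in normalized CPM, at 2958 and 2974 with vehicle (68711 and 59524 counts) and at 2752 and 2676 with 5D (74677 and 76523 counts). The 5D libraries lay below the vehicle libraries by several times the spread inside either group. Its log2 fold change was -0.13 (SE 0.03, 95% interval -0.19 to -0.06, unadjusted p = 0.0012, edgeR adjusted p = 0.321), with adjusted p between 0.0152 (limma-voom) and 0.757 over the alternatives. The exons of Pkm share 767 bases with Gm49759 on the same strand, a gene with a mean of 30.1 normalized CPM, and reads of the pair may not have been separated. Gene-level values do not separate the M1 and M2 splice forms of Pkm.

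**Figure D4:**
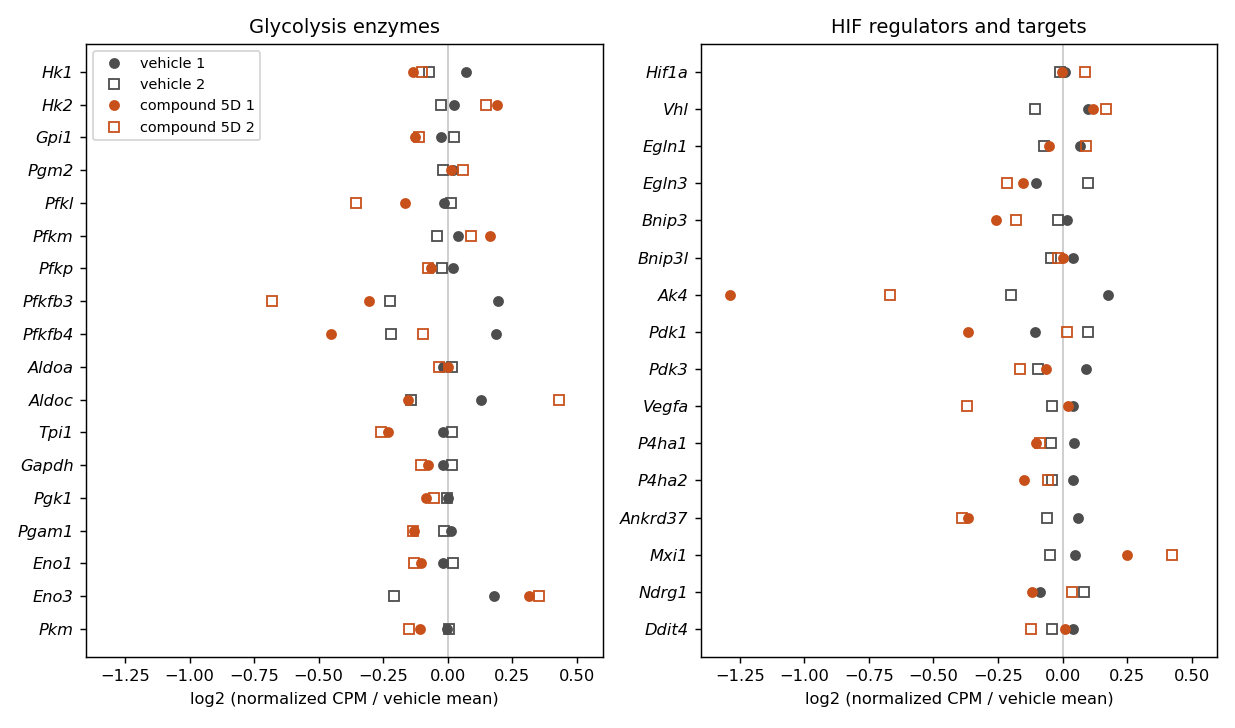
The log2 ratio of normalized CPM to the vehicle mean for each of the 34 genes in each of the 4 libraries. Each library is a point, with vehicle and 5D libraries marked. Tpi1, Pgam1, Eno1 and Pkm show both 5D points below both vehicle points, while the points of Aldoa and Hif1a intermingle.

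Set per kilobase of the longest transcript, 9 of the 34 genes had a mean of at least 100 normalized CPM per kb with vehicle, 8 of them enzymes that act from glucose 6-phosphate to pyruvate and the other Hif1a. With the length of all exons of a gene instead, 8 genes reached that level and Gpi1 did not. Aldoa (1679), Pkm (1220) and Eno1 (1203) led, followed by Pgk1 (481), Tpi1 (443), Pgam1 (421), Gapdh (322), Hif1a (171) and Gpi1 (149). Both hexokinases and all phosphofructokinase subunits were below that level, at most 89.5 for Hk1. HIF target members other than the glycolytic enzymes were low, the highest being Bnip3 at 43.4 normalized CPM per kb.

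**Figure D5:**
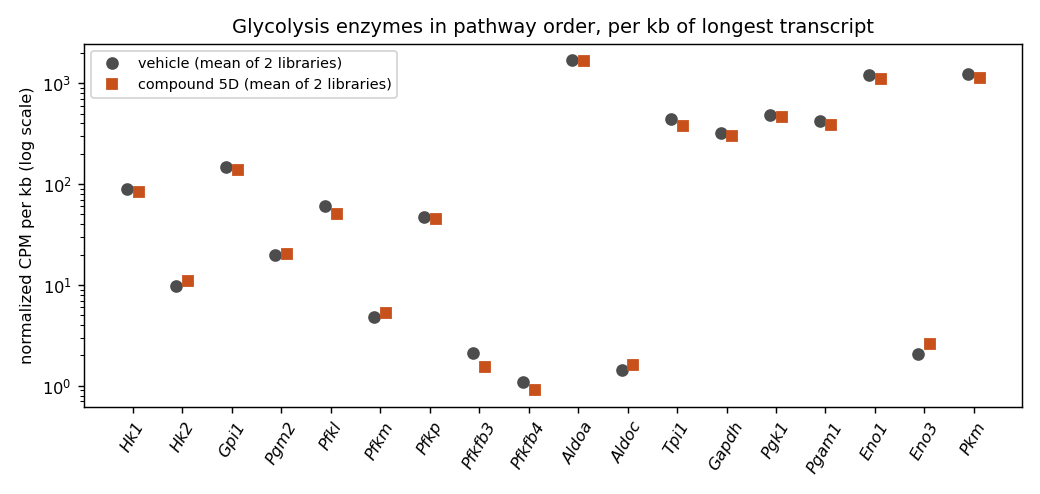
Mean level of each of the 18 glycolytic genes in normalized CPM per kilobase of the longest transcript (log axis), for vehicle and 5D. The enzymes from aldolase to pyruvate kinase sit highest, near or above 300 for their main gene, and the regulatory Pfkfb3 and Pfkfb4 sit near 1 to 2.

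The HIF pathway was examined next, starting with the factor and the proteins that control its stability. Hif1a (ENSMUSG00000021109, mm10 chr12:73901375-73947530) was abundant, at 813 and 800 normalized CPM with vehicle (18875 and 16010 counts) and at 805 and 856 with 5D (21851 and 24468 counts). The groups overlapped, and its log2 fold change was 0.04 (SE 0.04, 95% interval -0.05 to 0.13, edgeR adjusted p = 0.891). HIF-1α is controlled mainly as a protein, which RNA levels do not measure. The prolyl hydroxylase gene Egln1 was at 127 to 142 normalized CPM in the 4 libraries with overlapping groups and a log2 fold change of 0.02. Egln3, a hydroxylase that HIF itself induces, was at 8.70 and 9.99 normalized CPM with vehicle and at 8.40 and 8.04 with 5D, both 5D libraries being lower, and the interval of its log2 fold change ran from -0.58 to 0.21. Vhl, the recognition subunit of the ubiquitin ligase, was at 28.0 and 24.2 with vehicle and 28.3 and 29.3 with 5D, both 5D libraries being higher by less than the difference between the vehicle libraries. Per kilobase, Egln1 gave 90.4% to 92.9% of the summed level of Egln1 and Egln3.

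Of the 12 HIF targets outside glycolysis, 11 (91.7%) had a log2 fold change below 0, against 50.4% of all genes tested. At p under 0.05 unadjusted, 2 (16.7%) were lower and 1 (8.33%) was higher, against 3.84% and 3.5%, and 0 passed the adjusted threshold. Their median log2 fold change was -0.11. Ak4 and Bnip3 were the lower genes and Mxi1 the higher gene. Both 5D libraries were below both vehicle libraries for 5 of the 12 (41.7%) and above for 1 (8.33%). Those shares stand beside 18.8% and 18.7% of all genes tested. The log2 fold changes of Bnip3l, Pdk1, Vegfa, Ndrg1 and Ddit4, all among those below 0, crossed 0 when each library was left out in turn.

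The promoters of members were read because HIF binds a short core of letters, ACGTG or GCGTG, at its target genes. Windows from 250 bases before to 50 bases after the start, from RefSeq on GRCm38.p6 (the mm10 assembly), were given for 32 of the 34 genes, in 50 windows, and some windows of a gene overlap. ACGTG on either strand was present in 27 of the 50 windows (54.0%), compared with 24.1% of the windows of genes in the table and 19.6% of all windows. GCGTG was present in 28 (56.0%), compared with 46.9% and 32.4%. Shown here are Bnip3, Mxi1, Pgk1 and Tpi1. Bnip3 is the lower HIF target with the most core matches in a single window, and Mxi1 the HIF target that was higher. Pgk1 is a glycolytic gene with ACGTG on each strand, and Tpi1 the member with the smallest p and no core match. Mxi1 has other windows, of which that at chr19:53310256-53310555 holds no match. The sequences run 5′ to 3′ on the strand of the gene, and capitals mark ACGTG and GCGTG and their reverse complements CACGT and CACGC. In CACGTG, the match on one strand overlaps that on the other.
Bnip3 (chr7:138909457-138909756, minus strand): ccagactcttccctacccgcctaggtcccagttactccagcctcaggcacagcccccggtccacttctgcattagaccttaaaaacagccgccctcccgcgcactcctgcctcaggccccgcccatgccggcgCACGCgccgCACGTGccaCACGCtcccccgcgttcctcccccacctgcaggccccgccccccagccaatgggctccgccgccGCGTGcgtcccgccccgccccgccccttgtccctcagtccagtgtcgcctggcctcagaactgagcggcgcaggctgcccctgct
Mxi1 (chr19:53329163-53329462, plus strand): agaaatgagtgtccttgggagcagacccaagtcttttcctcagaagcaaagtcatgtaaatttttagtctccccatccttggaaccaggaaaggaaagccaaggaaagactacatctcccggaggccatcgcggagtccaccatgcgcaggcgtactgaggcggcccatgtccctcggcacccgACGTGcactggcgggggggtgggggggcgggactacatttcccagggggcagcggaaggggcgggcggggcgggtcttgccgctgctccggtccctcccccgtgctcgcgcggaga
Pgk1 (chrX:106186850-106187149, plus strand): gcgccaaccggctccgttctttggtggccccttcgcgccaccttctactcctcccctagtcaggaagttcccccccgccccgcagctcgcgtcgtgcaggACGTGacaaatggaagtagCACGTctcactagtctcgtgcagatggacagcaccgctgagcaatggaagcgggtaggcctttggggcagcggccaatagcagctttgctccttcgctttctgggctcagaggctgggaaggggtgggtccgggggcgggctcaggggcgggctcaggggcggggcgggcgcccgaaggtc
Tpi1 (chr6:124814109-124814408, minus strand): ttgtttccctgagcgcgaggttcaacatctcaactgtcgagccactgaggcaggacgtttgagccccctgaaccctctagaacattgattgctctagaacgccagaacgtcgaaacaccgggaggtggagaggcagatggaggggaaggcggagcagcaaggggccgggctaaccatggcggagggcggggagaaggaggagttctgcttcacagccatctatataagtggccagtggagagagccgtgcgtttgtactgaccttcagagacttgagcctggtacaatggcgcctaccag
The presence or absence of these letters describes the window only and says nothing of binding in these cells.

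Bnip3 and Bnip3l encode receptors of the outer mitochondrial membrane that mark mitochondria for mitophagy. Bnip3 (ENSMUSG00000078566, mm10 chr7:138890836-138909519), whose promoter window held matches of both cores, was at 77.2 and 75.3 normalized CPM with vehicle (1792 and 1507 counts) and at 63.7 and 67.3 with 5D (1730 and 1923 counts). Both 5D libraries were clearly below the vehicle libraries, with a log2 fold change of -0.22 (SE 0.08, unadjusted p = 0.0138, edgeR adjusted p = 0.556). Its relative Bnip3l was at 75.5 and 71.2 normalized CPM with vehicle and at 73.5 and 72.4 with 5D. The groups of Bnip3l overlapped, and its log2 fold change was -0.0085 with an interval from -0.17 to 0.15. Per kilobase, Bnip3 made up 65.5% and 66.3% of the summed level of both genes with vehicle and 61.7% and 63.3% with 5D. The exons of Bnip3 share 504 bases with Gm45507 on the opposite strand.

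Ak4, an adenylate kinase of the mitochondrial matrix, had the largest fold difference of the 34 genes. Ak4 (ENSMUSG00000028527, mm10 chr4:101419277-101466995) was at 5.90 and 4.55 normalized CPM with vehicle (137 and 91 counts) and at 2.14 and 3.29 with 5D (58 and 94 counts). The groups did not overlap, but the libraries differed within each group. Its log2 fold change was -0.94 (SE 0.29, 95% interval -1.59 to -0.30, unadjusted p = 0.0078, edgeR adjusted p = 0.530), and it was -0.67 without 5D replicate 1 and -1.29 without 5D replicate 2. Pyruvate dehydrogenase kinases restrain the use of pyruvate in mitochondria. Pdk1, the HIF-induced form, was at 16.4 and 18.9 normalized CPM with vehicle and at 13.7 and 17.9 with 5D. Pdk3 was at 79.1 and 69.7 with vehicle and at 71.1 and 66.4 with 5D and made up 90.0% to 92.7% of the summed level of Pdk1 and Pdk3 per kilobase. The groups of both kinases overlapped.

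Vegfa, the vascular endothelial growth factor that HIF induces in hypoxic tissue, was scarce in these cells. It was at 8.74 and 8.24 normalized CPM with vehicle (203 and 165 counts) and at 8.62 and 6.58 with 5D (234 and 188 counts). The groups overlapped, and the log2 fold change was -0.16 (SE 0.20, 95% interval -0.60 to 0.28, edgeR adjusted p = 0.921). P4ha1 and P4ha2 encode catalytic subunits of the prolyl hydroxylase that stabilizes collagen. P4ha1 was at 43.7 and 41.1 normalized CPM with vehicle and at 39.5 and 39.9 with 5D, and P4ha2 was at 45.5 and 42.9 with vehicle and at 39.9 and 42.6 with 5D. Both 5D libraries were lower for each gene, by log2 fold changes of -0.10 and -0.10, with intervals that include 0. For P4ha2 the lower vehicle value (42.9) was close to the higher 5D value (42.6). The log2 fold change of P4ha1 was -0.14 when vehicle replicate 2 was left out and -0.054 when vehicle replicate 1 was, and that of P4ha2 was -0.15 without 5D replicate 2 and -0.059 without 5D replicate 1.

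Mxi1, a partner of MAX that opposes MYC at shared sites, was the member that was higher with 5D at an unadjusted p under 0.05. Mxi1 (ENSMUSG00000025025, mm10 chr19:53310518-53375810) was at 15.8 and 14.8 normalized CPM with vehicle (368 and 297 counts) and at 18.2 and 20.6 with 5D (495 and 588 counts). Both 5D libraries were above both vehicle libraries, with a log2 fold change of 0.34 (SE 0.14, 95% interval 0.04 to 0.64, unadjusted p = 0.0303, edgeR adjusted p = 0.621). Ankrd37, a small ankyrin-repeat protein and a direct HIF target, went the other way, from 9.34 and 8.59 normalized CPM to 6.96 and 6.85. The groups of Ankrd37 did not overlap, and its log2 fold change was -0.38 (unadjusted p = 0.0644). The stress-induced genes Ndrg1 and Ddit4, the latter an inhibitor of mTORC1, had overlapping groups. Their levels were 17.4 to 19.9 and 47.8 to 53.5 normalized CPM over the 4 libraries, with log2 fold changes of -0.04 and -0.05.

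The genes next to these in the pathways were counted in the same fit. Of 26 other genes of glucose and pyruvate metabolism that were tested, 2 were lower and 0 were higher at an adjusted p under 0.05. Among all genes tested those shares were 0.068% and 0.0283%. At the unadjusted threshold 3 (11.5%) were lower and 0 higher, against 3.84% and 3.5% of all genes tested. In this list 14 genes (53.8%) had a log2 fold change below 0, against 50.4%, and the median was -0.0039, against -0.0016. Lactate dehydrogenase A (Ldha), which turns pyruvate to lactate, fell from 3485 and 3582 normalized CPM to 3076 and 3039, with a log2 fold change of -0.21 (SE 0.03, edgeR adjusted p = 0.0253). The lactate exporter Slc16a3 fell from 154 and 157 normalized CPM to 115 and 113, with a log2 fold change of -0.45 (SE 0.06, edgeR adjusted p = 0.0240). Without 5D replicate 2 the edgeR adjusted p was 0.0764 for Ldha and 0.0573 for Slc16a3, and with all libraries thinned to the smallest total it was 0.0876 and 0.0706. The glucose transporter gene Slc2a1 was at 158 and 161 normalized CPM with vehicle and 149 and 147 with 5D (log2 fold change -0.11, edgeR adjusted p = 0.740), and the third gene at an unadjusted p under 0.05 was Eno1b, with a log2 fold change of -0.10 (edgeR adjusted p = 0.566).

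Of 47 other HIF subunits, regulators and targets that were tested, 0 passed an adjusted p under 0.05, 7 (14.9%) were lower and 6 (12.8%) higher by the unadjusted threshold, and 30 (63.8%) had a log2 fold change below 0. The corresponding shares of all genes tested were 3.84%, 3.5% and 50.4%. Plin2, which coats lipid droplets, was at 465 and 474 normalized CPM with vehicle and at 563 and 542 with 5D, with a log2 fold change of 0.23 (SE 0.04, edgeR adjusted p = 0.105). Cited2, an induced inhibitor of HIF that competes for its coactivator, was at 42.5 and 47.4 normalized CPM with vehicle and at 32.2 and 29.6 with 5D, with a log2 fold change of -0.54 (SE 0.10, edgeR adjusted p = 0.133). Both genes had groups that did not overlap. Rragd, a Rag GTPase of mTORC1 signalling, had 20 and 6 counts with vehicle and 0 and 0 with 5D, too few for a fold change to be read.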

How the data were processed

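RNA was sequenced from 2 vehicle and 2 compound 5D libraries of sorted lung ILC2s. The submitters' processing notes name CASAVA 1.8.2, STAR 2.6.1 and Partek with mm10. The table that the authors deposited holds unnormalized estimated counts for each gene, of which 50.4% to 53.2% per library were whole, and they were rounded here although whole counts had been planned for. The number of usable columns left out was 0. Members and lists were chosen with earlier results of these data known.

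The analysis used edgeR 4.0.16 in R 4.3.3 (quasi-likelihood test, two-sided, upper-quartile factors over all genes, Benjamini-Hochberg over 17650 genes). Genes with a mean normalized count under 1 or a sum under 10 were left out, 4904 in all. Normalized CPM are CPM after these factors. The standard error is the absolute log2 fold change over the root of F, and intervals are 95% t intervals. Counting error is small for most members at this depth. The variance between replicates was 5.75 (vehicle) and 6.26 (5D) times that of counting noise, as chi-square per degree of freedom.

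Full statistics were given for members with an adjusted or unadjusted p under 0.05 and for Hif1a, Hk2, Gapdh and Vegfa. Of each list of other pathway genes, those with an adjusted p under 0.05 and the 3 with the smallest p were named. Slc2a1 was named besides, after its values were seen. Coordinates and lengths are from GENCODE on mm10, and 33 of the 34 members had the position of the table. Exons of Hk1, Gpi1, Pfkm, Pfkp, Aldoa, Tpi1, Gapdh, Pkm, Hif1a, Bnip3, Ankrd37, Mxi1 and Ndrg1 overlap exons of another gene, so their counts may hold reads of both. The Aldoa row covers 2 GENCODE genes of that name. Near-identical genes were found with BLAST 2.17.0 (at least 150 nt at 95% identity). The scripts were checked on simulated counts, and plots were made in Python 3.11.15 with matplotlib 3.10.9. Alternatives were other scalings, DESeq2 1.42.0, limma-voom (limma 3.58.1), other filters, a replicate block, thinning (10 draws), leaving out each library and, chosen after seeing the data, near-identical genes summed.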

Additional observations from a re-analysis of the deposited data

How the results depend on the processing

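Fold changes of the 34 genes were computed under 452 combinations of gene and alternative, of which 428 kept the direction and the side of the threshold, 12 kept the direction and passed the threshold besides, and 12 reversed. In all, 26 of the 34 genes kept their direction throughout. At an adjusted p under 0.05 the count of lower members was 0 and became 1 with upper-quartile factors after filtering, 3 with DESeq2, 2 with limma-voom, 1 with no filter, 1 with filterByExpr and 1 (Tpi1, adjusted p = 0.0146) with the replicate block, and 0 to 2 when each library was left out, with 2 (Pfkl and Tpi1) without vehicle replicate 1 and 1 (Tpi1) without vehicle replicate 2. The count of higher members at an unadjusted p under 0.05 was 1 and became 0 with DESeq2, and 0 to 1 when each library was left out, while that of lower members was 7 to 10. Over all genes, the count at an adjusted p under 0.05 was 12 lower and 5 higher, and became 42 and 18 with DESeq2, 23 and 9 with limma-voom, 35 and 11 with no filter, 32 and 9 with the replicate block and 1 and 1 after thinning, with 19 lower under filterByExpr, and ran from 12 to 107 lower and 3 to 73 higher when each library was left out. At an unadjusted p under 0.05 DESeq2 called 394 lower and 352 higher genes of all, and leaving out each library gave 580 to 861 lower and 380 to 1034 higher. Bnip3l was reversed with TMM factors (0.00057). Leaving out each library gave log2 fold changes of -0.16 to 0.42 for Aldoc, -0.0041 to 0.082 for Hif1a, -0.054 to 0.090 for Egln1, -0.053 to 0.032 for Bnip3l, -0.36 to 0.016 for Pdk1, -0.37 to 0.019 for Vegfa, -0.12 to 0.045 for Ndrg1 and -0.13 to 0.0079 for Ddit4, all crossing 0. It also moved Pgm2 (0.0092 to 0.055), Pfkm (0.084 to 0.17), Pfkfb4 (-0.45 to -0.048), Aldoa (-0.037 to -0.00064), Eno3 (0.15 to 0.54), Vhl (0.041 to 0.25), Egln3 (-0.28 to -0.083) and Pdk3 (-0.21 to -0.022) by over 1.5 times, and the median of the 34 genes stayed between -0.104 and -0.058. The cause was not tested. Leaving out a library leaves 1 in its group, which is then assumed to vary like the other group. Same-numbered libraries did not deviate together (r = 0.016 over 12331 genes), so the paired fit rests on a shared number only.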
